A study of Mus musculus with 2 samples.

Results

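The genes described here encode the nuclear subunits of oxidative phosphorylation, complexes I to V of the inner mitochondrial membrane. They were chosen by symbol: every gene with a single symbol on the array that begins with Ndufa, Ndufb, Ndufc, Ndufs, Ndufv, Uqcr, Cox4, Cox5, Cox6, Cox7, Cox8 or Atp5, plus Sdha, Sdhb, Sdhc, Sdhd and Cyc1, without the Ndufaf assembly factors. This gave 83 of the 18193 genes with a single symbol, 36 in complex I, 4 in complex II, 9 in complex III, 17 in complex IV and 17 in complex V. Their signals came from 2 Affymetrix arrays of splenic antigen-presenting cells (APCs). The cells were from wild-type 10-week-old female C57BL/6 mice and had been cultured overnight with CD4+ T cells bearing the P25 T cell receptor. One culture received P25, a peptide from a mycobacterial secreted protein that this receptor recognises, and the other received medium. The APCs were then enriched, and each array carried RNA mixed from 3 independent experiments, so there is 1 array per condition, no spread between cultures and no test. The T cells were present in both conditions, and neither a share of APC types nor a measure of purity is given in the sources used here.

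Complexes I to IV pass electrons from NADH and succinate to oxygen and, except for complex II, pump protons across the inner membrane. Complex V, the ATP synthase, lets the protons flow back and makes ATP. Most subunits are encoded in the nucleus and imported, while a few come from mitochondrial DNA. Resting lymphocytes draw much of their ATP from this pathway, and activated lymphocytes and myeloid cells are known to change the balance between it and glycolysis.

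The 2 arrays had median signals of 18.0 (P25) and 18.4 (medium) over all probe sets other than controls. Signals below 10.3, the 40th percentile over both arrays, were set to that floor, and a gene was measured when at least 1 array exceeded it. All 13 B cell markers on the array were measured, with summed signals of 35137 (P25) and 47471 (medium), and 12 of them were lower with P25. Ms4a1, which encodes CD20, was the exception, with 5911 and 5041. Of 12 T cell markers 8 were measured, with summed signals of 498 and 1394, while the probe sets read for Cd3e, Cd3d, Cd247 and Cd4 were below the floor on both arrays. In such bulk samples, fewer cells of a type and less RNA per cell cannot be told apart.

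Most oxidative phosphorylation genes had a modestly higher signal with P25. Of 83 members, 78 were measured and 77 were above the floor on both arrays. The P25 array had the higher signal in 69 of the 78 (88.5%), against 51.4% of all 12897 measured genes. The median log2 ratio of P25 over medium was 0.51, or 1.42-fold higher, against 0.02 over all measured genes. The middle 50% of the members lay between 0.25 and 0.72 on the log2 scale, and that of all genes between -0.43 and 0.48. At a threshold of 1.5-fold, 34 members (43.6%) were higher with P25, against a background of 20.9% of all genes. At the same threshold 2 of the 78 were lower, against 2354 of all 12897 measured genes.

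Few members differed by as much as 2-fold. With P25, 7 of 78 (8.97%) were at least 2-fold higher, against 9.43% of all measured genes, and 1 was at least 2-fold lower, against 7.22%. The share past 2-fold was therefore close to the background, while the share above 0 was not. The 7 higher genes were Atp5g1, Sdhd, Ndufab1, Atp5h, Ndufb6, Uqcrq and Cox5a, with members from each of the 5 complexes, and the lower one was Cox7c. Just under the threshold stood Atp5j at 1.996-fold, Ndufa12 at 1.96-fold, Uqcr10 at 1.96-fold and Ndufa5 at 1.96-fold. These genes are bright: 63 of the 78 had a medium signal of 500 or more. Among 2181 other genes of like signal (means from 481 to 3210, the 10th to 90th percentile of the members), 55.4% had a log2 ratio above 0, 27.2% were at least 1.5-fold and 13.1% at least 2-fold higher, and the median was 0.10.

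The scaling of the arrays set the size of the shift. Over the 29549 measured probe sets the median signal was 64.3 with P25 and 71.1 with medium. With these 2 medians made equal, the median log2 ratio was 0.65 for the members and 0.15 for all genes. With the 18 hybridisation spike-in probe sets as reference it was 0.66 and 0.16. After loess on mean signal it was 0.33 and 0.05. The number of members at least 2-fold higher was 12 and 13 with these scalings and 4 after loess, where all genes gave 12.4%, 12.5% and 9.93%. The difference between the members and the other genes of like signal was 0.41 as deposited and 0.38 after loess.

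**Figure D1:**
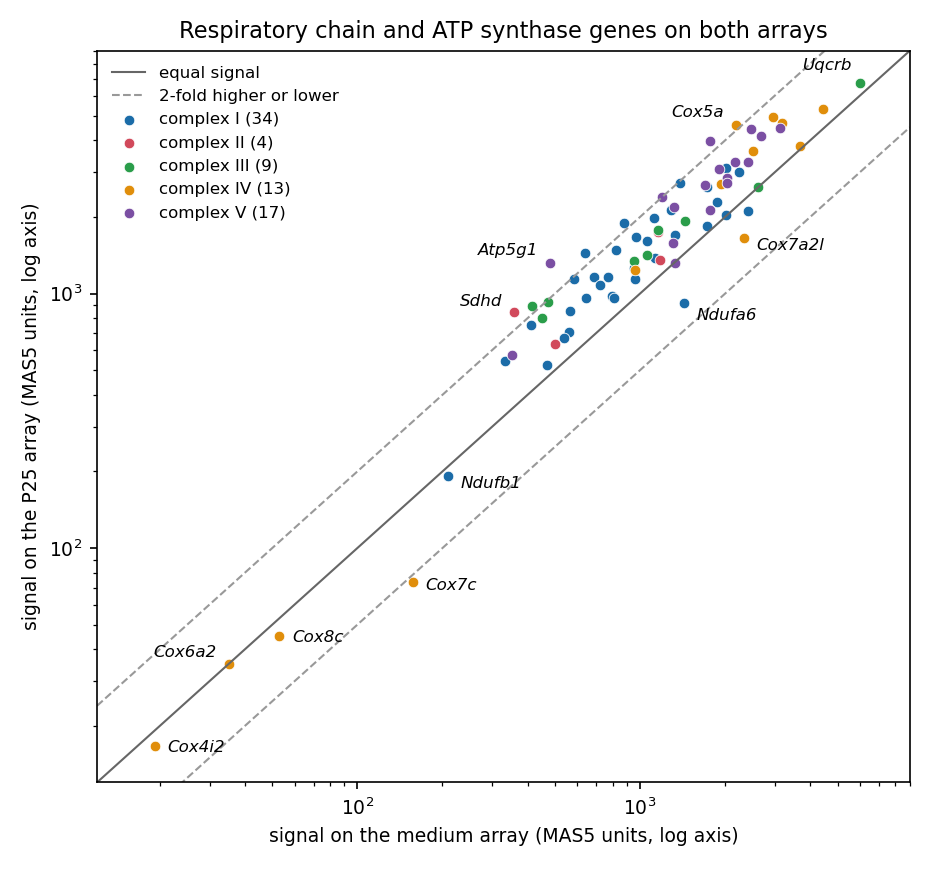
Signal of each of the 77 members above the floor on both arrays, medium array on the horizontal and P25 array on the vertical axis, both in MAS5 units on log axes and coloured by complex. Most points lie above the line of equal signal and below the 2-fold line, with Atp5g1 and Sdhd beyond it and Cox7c, Ndufa6 and Cox7a2l below the diagonal.

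Complex I, the NADH dehydrogenase and largest complex of the chain, had 35 measured genes of 36, and their median log2 ratio was 0.58. Of these, 32 had the higher signal with P25 and 3 the lower. The one probe set with Ndufb4 as its single symbol was below the floor on both arrays, while a probe set that Ndufb4 shares with Ndufb4b and Ndufb4c had 1129 and 865. Ndufab1, the mitochondrial acyl carrier protein and a structural part of the complex, had a signal of 1445 with P25 and 641 with medium, or 2.25-fold. The accessory subunit gene Ndufb6 had 1901 and 875, or 2.17-fold. Both were higher with P25, and the second probe set of each gave log2 ratios of 0.94 and 1.05. Dimmer probe sets of Ndufab1 went down to -0.36, and the median over its probe sets was 0.57, under 2-fold. Ndufa12 had 2713 and 1381, and Ndufa5 had 1140 and 583. Both accessory subunits were thus close to double the medium signal on these probe sets, although a dim probe set of Ndufa12 gave a log2 ratio of -1.08.

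The core subunits, which carry out electron transfer from NADH, had a smaller median ratio than the accessory subunits. All 6 core subunits on the array under a single symbol had the higher signal with P25, none by 2-fold, with a median of 1.35-fold. Ndufv2, an iron-sulphur protein of the NADH-binding arm, led with 1982 against 1125, or 1.76-fold. Ndufv1, which binds NADH and the flavin, had 964 against 643. Ndufs3 had 1078 against 721, which was the same ratio as Ndufv1 to within 0.01 on the log2 scale. Ndufs8 had 2286 against 1879, and Ndufs7 had 1138 against 963. Ndufs1, the largest subunit of the complex, came last with 526 against 467, or 1.13-fold. The 28 measured accessory subunits, with Ndufa4 counted among them by its symbol, had a median of 1.51-fold. The difference from the core subunits was not tested.

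A few accessory subunits went the other way or differed little. Ndufa6, an LYR-motif protein that binds the acyl carrier protein, had 915 with P25 and 1432 with medium, or 1.57-fold lower. That was the lowest ratio in the complex, opposite to that of Ndufab1. Ndufb11 had 2111 and 2402, and its 3 probe sets all had log2 ratios below 0, from -0.31 to -0.09. Ndufb1 had 192 and 209, and its log2 ratio of -0.12 came to 0.03 with median scaling. Ndufa13 (2035 and 2010) and Ndufa2 (1838 and 1721) lay close to equality. Ndufa4, named for complex I but since assigned to complex IV, had 1157 and 690, or 1.68-fold higher. The isoform Ndufa4l2 is described below. The other 18 measured genes of the complex had log2 ratios from 0.24 (Ndufb3) to 0.88 (Ndufb2), all above 0.

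Complex II, succinate dehydrogenase, is also an enzyme of the TCA cycle and has no mitochondrially encoded subunit. All 4 of its genes had the higher signal with P25, with a median of 1.38-fold, but their ratios differed. Sdhd, a membrane anchor, had 847 with P25 and 360 with medium, or 2.36-fold, and the other probe set of the gene gave 1.29 in log2 ratio. Sdhb, the iron-sulphur subunit, had 1752 and 1155, or 1.52-fold. Sdhc, the other anchor, had 634 and 502. Sdha, the flavoprotein that oxidises succinate, had 1351 and 1173, or 1.15-fold, with -0.06 and -0.82 on its 2 other measured probe sets. The order of the log2 ratios was thus Sdhd, Sdhb, Sdhc, Sdha. Sdhd had the highest ratio on both of its probe sets. With no spread between cultures, the differences between the 4 genes were not tested.

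Complex III, the cytochrome bc1 complex, passes electrons from ubiquinol to cytochrome c. All 9 of its genes had a log2 ratio above 0, with a median of 1.41-fold. Of the small subunits, Uqcrq, Uqcr10 and Uqcr11 had the highest ratios of the complex and Uqcrb and Uqcrh the lowest. Uqcrq, a ubiquinone-binding subunit, had 893 with P25 and 414 with medium, or 2.16-fold. Its other measured probe sets, with signals from 13.3 to 27.8, gave log2 ratios of -0.43 and -0.12. Uqcr10 had 927 and 473, with all 3 probe sets above 0, and Uqcr11 had 803 and 452. The 4 core genes lay closer together. Cyc1, the cytochrome c1 gene, had 1785 and 1156, or 1.54-fold. Uqcrc1 had 1347 and 953, Uqcrc2 had 1933 and 1441, and Uqcrfs1, the Rieske iron-sulphur protein, had 1414 and 1059. Their ratios ran from 1.34-fold to 1.54-fold. Uqcrb had 6750 and 6008 on its brightest probe set, or 0.17 on the log2 scale, and 0.78 on the other. Uqcrh, the hinge protein, had 2631 and 2621, a ratio of 1.00.

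Complex IV, cytochrome c oxidase, reduces oxygen to water. It was the most mixed of the complexes, with 8 of 13 measured genes above 0, 5 below and a median of 1.19-fold. Without the tissue isoforms and Cox7a2l, 8 of 9 were above 0 and the median log2 ratio was 0.47. Cox5a, a subunit on the matrix side, had 4582 with P25 and 2192 with medium, or 2.09-fold, with log2 ratios between 0.72 and 1.31 over 3 probe sets. Cox7a2 had 4965 and 2962, and Cox6b1, which faces the intermembrane space, had 4685 and 3189. These were 1.68-fold and 1.47-fold higher. Cox5b, Cox6c, Cox8a and Cox6a1 ranged from 0.53 down to 0.25 on the log2 scale. Cox4i1, the common form of the largest nuclear subunit, had 3800 and 3676, or 1.03-fold, so that it hardly differed between the arrays.

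Cox7c and Cox7a2l were lower with P25. Cox7c had 73.8 with P25 and 157 with medium, or 2.13-fold lower, and its second probe set, with 20.8 and 37.8, gave a log2 ratio of -0.87. These were among the dimmest of the members, and Cox7c was under 2-fold with each other scaling of the arrays, with the floor at the 75th percentile, with log2(signal + 16) and by the median over probe sets. Cox7a2l encodes a protein linked to the joining of complexes III and IV into supercomplexes and is not a subunit of the oxidase alone. Its protein and supercomplexes were not measured here. It had 1658 and 2330, or 1.41-fold lower, and its 3 probe sets had log2 ratios of -0.49, -0.50 and -0.74. It thus went against its relative Cox7a2, whose probe sets gave 0.75 and 0.82.

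Complex V, the ATP synthase, had all 17 genes measured, with a median of 1.54-fold, and 16 had a log2 ratio above 0. Atp5g1, Atp5g2 and Atp5g3 encode the same mature subunit c, which forms the rotating ring in the membrane, and differ in their import sequences. Atp5g1 had 1317 with P25 and 482 with medium, or 2.73-fold, the highest ratio of all members. Atp5g3 had 4441 and 2465, or 0.85 on the log2 scale, and Atp5g2 had 2709 and 2031, or 1.33-fold. The 3 genes for one mature protein thus ran from 0.42 to 1.45 on the log2 scale.

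The catalytic head had smaller and more even ratios. Atp5b, the catalytic beta subunit, had 4143 and 2685, or 1.54-fold. Atp5a1, the alpha subunit, had 3274 and 2174, or 1.51-fold. Atp5d had 2858 and 2025, Atp5c1, the central shaft, 3279 and 2412, and Atp5e 2126 and 1775. All 5 head genes were between 1.20-fold and 1.54-fold higher. The 7 genes of the stalk and membrane part had a median of 1.62-fold. Atp5h, of the peripheral stalk, had 3961 and 1770, or 2.24-fold, and 0.54 in log2 ratio on the second probe set. Atp5j, another stalk subunit, had 2391 and 1197, or 1.996-fold. Atp5o, which joins the stalk to the head, had 2186 and 1324, or 0.72 on the log2 scale, and 1.55 on its second probe set. Atp5j2, Atp5k and Atp5pb had log2 ratios of 0.70, 0.66 and 0.52, and Atp5l 0.27. Of the small membrane proteins, Atp5md had 572 and 352, and Atp5mpl, with 1319 and 1326, was the single member of the complex that was not higher.

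**Figure D2:**
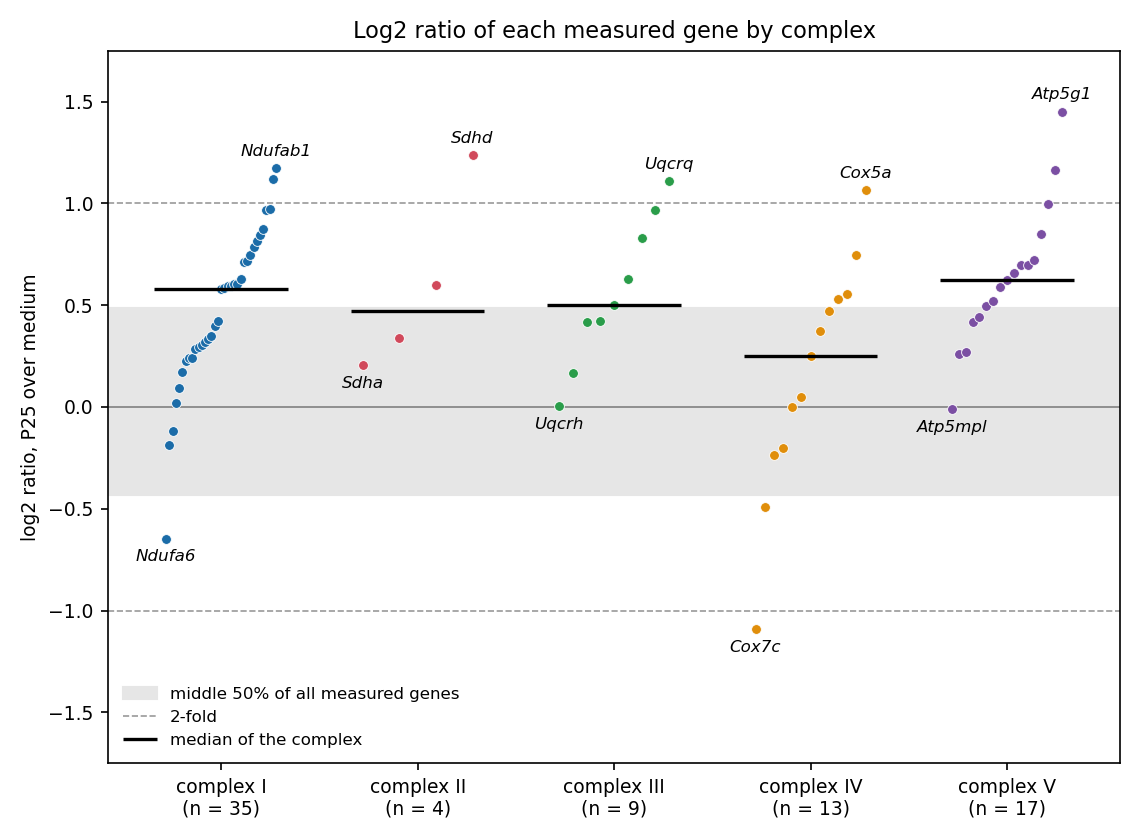
Log2 ratio of P25 over medium for each of the 78 measured members, arranged by complex and ordered within it by ratio, with a black bar at the median of the complex. The grey band is the middle 50% of all measured genes (-0.43 to 0.48), and the medians of complexes I, III and V lie above it, that of complex II just inside and that of complex IV (0.25) well inside.

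Isoforms used in particular tissues or states were dim or below the floor. Of 8 such genes, Cox6b2, Cox7a1, Cox7b2 and Cox8b were below the floor on both arrays. These are forms of testis, heart or skeletal muscle. Cox6a2, the muscle form of Cox6a1, had 35.1 with P25 and 35.2 with medium. Cox4i2 had 16.7 and 19.2, and Cox8c had 45.1 and 53.0. Ndufa4l2, a hypoxia-induced relative of Ndufa4, had 12.02 with P25 and was below the floor with medium, at least 1.17-fold higher. That is a lower bound, and with the floor at the 20th percentile its log2 ratio was 1.01, which brought the members at least 2-fold higher to 8. The 3 isoforms above the floor on both arrays were within 2-fold.

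With 1 array per condition, probe sets of one gene gave the available view of technical disagreement. In 45 members a second probe set was above the floor on both arrays, and it had a ratio of the same sign as the brightest in 40 (88.9%), against 3969 of 5293 genes on the whole array. Where the second had a mean signal of 100 or more, 37 of 39 had the same sign and the log2 ratios differed with an SD of 0.27. Where it was dimmer, 3 of 6 had the same sign, and the SD was 1.03. The exceptions among the brighter pairs were Sdha and Uqcrh, both with ratios near 1. Those among the dimmer pairs were Uqcrq, Atp5c1 and Ndufb8, for which the second log2 ratios were -0.43, -0.54 and -1.13. Over all 130 member probe sets of mean signal 100 or more, 118 had a log2 ratio above 0, with a median of 0.58, and over the 28 dimmer ones 11 did, with a median of -0.09. The SD of 0.27 describes probes on the same arrays and not the spread between cultures.

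**Figure D3:**
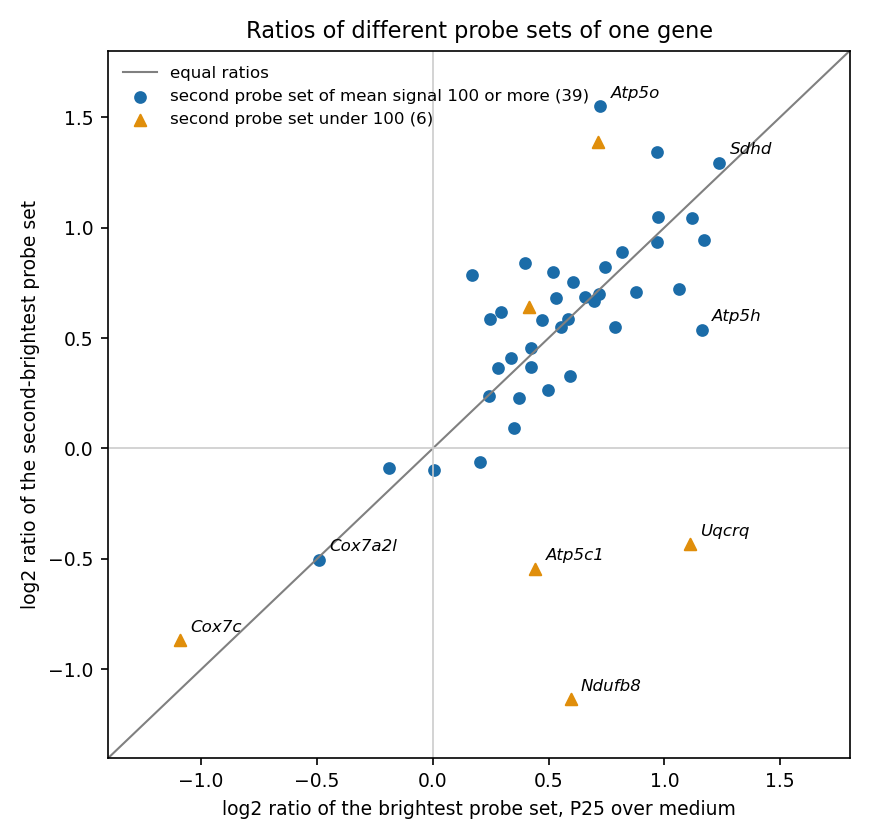
Log2 ratio of P25 over medium on the second-brightest probe set (vertical axis) against the brightest (horizontal axis) for the 45 members with both above the floor on both arrays. Blue points, with a second probe set of mean signal 100 or more, follow the line of equal ratios, while of the 6 orange triangles, with dimmer second probe sets, 2 lie above 0 on the vertical axis.

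The start sites of the members were searched for letters of 3 factors long linked to nuclear genes of the respiratory chain. RefSeq windows (GRCm38.p6) of 250 bases before to 50 after a start were found for 67 of the 83 members, 72 windows in all. GCATGCGC, part of the NRF-1 motif, occurred on either strand in 12.5% of member windows, against 2.71% of all 32851 windows and 4.85% of those of other measured genes. CCGGAAG, the core bound by ETS factors such as GABP, occurred in 23.6%, against 8.86% and 16.4%. AAGATGGC, bound by YY1, occurred in 12.5%, against 2.75% and 4.04%. The letters of more than 1 of them can lie in one window, and 29 of the 67 members had at least 1. Their median log2 ratio was 0.58, the same as that of the 33 measured members with none. The members with the NRF-1 letters had 0.50 (n = 9), those with the ETS letters 0.60 (n = 17) and those with the YY1 letters 0.59 (n = 9).

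The 150 bases before the start are shown for Atp5g1, the member with the highest ratio, and for the members of highest and lowest ratio that hold the NRF-1 letters (Atp5k, Ndufa6) or the ETS letters (Sdhd, Uqcrh) in that stretch, among members with a single window. Each reads 5′ to 3′ on the gene's own strand, in GRCm38.p6 coordinates, and capitals mark the matched letters.
Atp5g1 chr11:96075632-96075781 (minus strand): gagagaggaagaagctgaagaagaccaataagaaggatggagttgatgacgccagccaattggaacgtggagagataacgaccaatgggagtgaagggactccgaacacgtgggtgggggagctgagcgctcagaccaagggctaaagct
Atp5k chr5:108434400-108434549 (minus strand): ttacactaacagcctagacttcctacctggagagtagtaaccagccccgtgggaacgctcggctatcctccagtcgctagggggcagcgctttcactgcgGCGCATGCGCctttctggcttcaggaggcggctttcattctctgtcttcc
Ndufa6 chr15:82354292-82354441 (minus strand): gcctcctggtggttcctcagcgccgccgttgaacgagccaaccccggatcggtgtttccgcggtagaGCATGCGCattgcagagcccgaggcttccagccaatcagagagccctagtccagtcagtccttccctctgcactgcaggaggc
Sdhd chr9:50603850-50603999 (minus strand): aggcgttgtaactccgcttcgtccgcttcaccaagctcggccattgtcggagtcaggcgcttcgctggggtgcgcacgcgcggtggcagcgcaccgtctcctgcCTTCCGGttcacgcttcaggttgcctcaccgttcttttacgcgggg
Uqcrh chr4:116075071-116075220 (minus strand): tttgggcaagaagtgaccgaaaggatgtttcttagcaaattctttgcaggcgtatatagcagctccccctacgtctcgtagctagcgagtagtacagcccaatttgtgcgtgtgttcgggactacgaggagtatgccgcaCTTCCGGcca
Atp5k holds the NRF-1 letters on both strands as one overlapping run that begins 50 bases before the start. Ndufa6 holds them once, 83 bases before it. The ETS letters lie on the reverse strand, 46 bases before the start of Sdhd and 10 before that of Uqcrh. Each pair was picked as the highest and lowest ratio among members with those letters, so its gap follows from the choice. The log2 ratios were 0.66 and -0.65 for Atp5k and Ndufa6, and 1.24 and 0.01 for Sdhd and Uqcrh. None of the 3 sets of letters was found in the stretch of Atp5g1.

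Other lists of the same pathway were set beside the subunits. Of all measured genes, 9.43% were at least 2-fold higher and 7.22% at least 2-fold lower. Cytochrome c, the electron carrier between complexes III and IV, had a ratio close to that of Atp5g1. Cycs had 4168 with P25 and 1529 with medium, or 2.73-fold, and a log2 ratio of up to 1.52 on its other measured probe sets. Of 8 genes of electron entry, Aifm1, a flavoprotein needed for chain assembly, was the other one past 2-fold (562 and 279), and the list median was 1.32-fold. The glycerol phosphate dehydrogenase Gpd2 (689 and 690) did not differ. Complex I assembly factors had a median of 1.53-fold over 16 genes, 4 (25%) past 2-fold upward and none downward. Ndufaf6 had 193 and 54.3, and Ndufaf2 243 and 76.1, or 3.56-fold and 3.19-fold, while Ndufaf3 (179 and 282) and Tmem126b (20.9 and 32.9) were lower within 2-fold. Assembly factors of complexes II to V had a median of 1.46-fold over 33 genes, 4 (12.1%) past 2-fold upward and none downward. Uqcc2 of complex III (2.65-fold) and Coa7 of complex IV (2.40-fold) led, and Surf1 and Ttc19 came last at log2 ratios of -0.56 and -0.62. Other probe sets went down to 0.69 for Uqcc2 and 0.46 for Coa7, and those of Ttc19 ran from -1.02 to 0.06.

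The mitochondrial ribosome, which translates the subunits encoded in mitochondrial DNA, stood higher still. All 47 genes of the large subunit and 28 of 29 of the small subunit had the higher signal with P25, with medians of 1.79-fold and 1.76-fold. On the second-brightest probe set, the small subunit had a median log2 ratio of 0.35 (n = 12) and the large one 0.68 (n = 26). The oxidative phosphorylation genes had 0.62 there. Past 2-fold upward were 11 and 6 of them (23.4% and 20.7%, against 9.43% of all measured genes), and none downward. Mrps27 (195 and 45.3), Mrps6 (506 and 127), Mrpl33 (687 and 185) and Mrpl12 (1698 and 554) led, although another probe set of Mrpl33 gave -0.14 in log2 ratio. Mrpl24 and Mrpl43 were close to equality, as were Mrps16 and Mrps35, at log2 ratios of 0.07, 0.10, -0.00 and 0.20. Genes that copy and transcribe mitochondrial DNA had a smaller median of 1.27-fold over 19. Supv3l1, an RNA helicase, was 2.47-fold and Elac2, which processes mitochondrial tRNA, 2.11-fold higher. These 2 past 2-fold were 10.5% of the list. Other probe sets went down to log2 ratios of 0.20 for Supv3l1 and 0.39 for Elac2. Tfam, which packages mitochondrial DNA, had 721 and 714, and Polg2 and Mterf2 were lower at -0.82 and -0.72 in log2 ratio.

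The general regulators of mitochondrial genes did not share one direction. Their median log2 ratio over 12 measured genes was -0.00, and 0.14 with median scaling. The genes past 2-fold upward were 2 (16.7%, against 9.43% of all measured genes), and none was past it downward. They were Myc (820 and 172, or 4.78-fold) and Pprc1, a relative of PGC-1 (551 and 256, or 2.15-fold). Nrf1 had 176 and 223, Gabpa 462 and 392, and Yy1 1816 and 1755, each within 2-fold on the probe set read. Other probe sets went down to log2 ratios of -0.55 for Nrf1 and -0.76 for Yy1. Genes of ETS factors other than GABP are not described here. Ppargc1a was dim, with 19.3 and 26.3, and Gabpb2 was lowest (449 and 779), with a probe set at 1.04.

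Enzymes that feed the chain or use its output lay between. The TCA cycle had a median of 1.31-fold over 16 genes. Past 2-fold upward were 2 (12.5%, against 9.43% of all measured genes), and none downward. Idh3a was 2.61-fold and Dlat, of pyruvate dehydrogenase, 2.47-fold higher, and Idh3b and Fh1 came last at log2 ratios of -0.03 and -0.12. Ubiquinone synthesis split, with 7 of 12 above 0: Coq3 and Coq4 were 2.47-fold and 2.03-fold higher, and Coq10a and Coq8b 1.89-fold and 1.95-fold lower. Other probe sets gave log2 ratios down to -0.10 for Coq3 and up to 0.02 for Coq10a. The ADP/ATP carriers Slc25a5 (5610 and 3040) and Slc25a4 (1590 and 917) were 1.85-fold and 1.73-fold higher, while the brain carriers Slc25a14 (57.6 and 60.5) and Slc25a27 (22.4 and 54.1) were dim, and Slc25a27 was 2.42-fold lower. The list of carriers and uncouplers had 6 of 8 genes measured, none past 2-fold upward and 1 downward, and a median of 1.30-fold. In the list of inhibitors and remodelling factors, 3 of 9 were past 2-fold upward, Chchd4, an import oxidoreductase (3.64-fold), Higd1a (2.45-fold) and the protease gene Lonp1 (1.09 on the log2 scale). Higd2a and Chchd10 were lower at -0.42 and -0.50, and the median was 1.32-fold. Of 9 genes of superoxide and peroxide defence, Txn2 was 2.02-fold higher, Sod2, Gsr and Gpx4 had log2 ratios of 0.85, 0.13 and -0.27, and the median was 1.51-fold.

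The vacuolar proton ATPase, a relative of ATP synthase that acidifies lysosomes and lies outside mitochondria, had no common direction. Of 17 measured genes 8 had a log2 ratio above 0 and 9 below. Past 2-fold was 1, downward, against 7.22% of all measured genes. The median of -0.07 came to 0.07 with median scaling and -0.26 after loess. Atp6v1d and Atp6v1e1 had the highest ratios, 0.54 and 0.42, and Atp6v0a1 and Atp6v1g2 the lowest, -0.72 and -1.13.

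**Figure D4:**
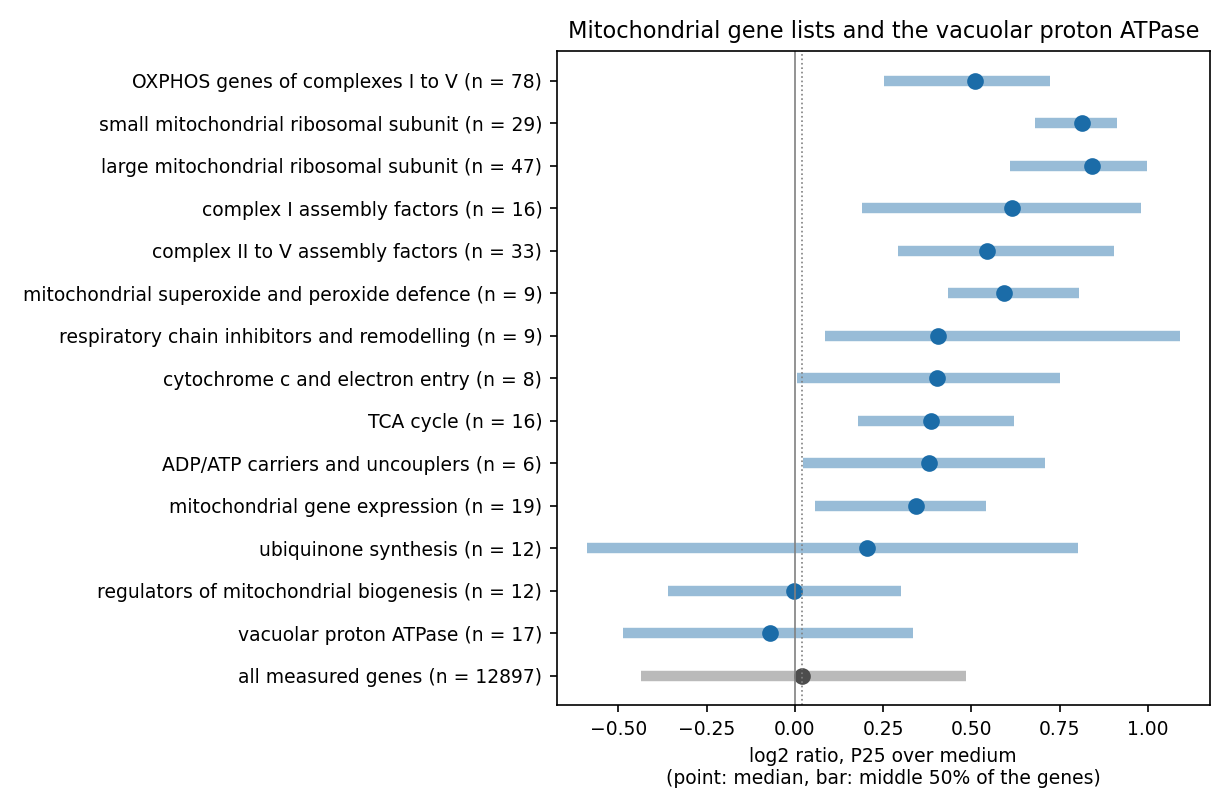
Median log2 ratio of P25 over medium (points) and range of the middle 50% of measured genes (bars) for the oxidative phosphorylation genes, the related lists and all measured genes. The subunits of the mitochondrial ribosome have the highest medians (0.81 and 0.84), the oxidative phosphorylation genes stand at 0.51, and the vacuolar proton ATPase (-0.07) and all genes (0.02) lie at about 0.

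Markers of several cell types were lower on the P25 array beside these ratios. Of 11 measured macrophage and monocyte markers (15 listed) 8 were 2-fold lower or more, against 7.22% of all measured genes. The median of the list was -1.28 in log2 ratio, and its summed signal was 1424 against 3356. Of 9 neutrophil markers 7 were past the same threshold (median -1.10, summed signal 6983 against 12922), and of 13 B cell markers 3 (-0.61). Of 9 conventional dendritic cell markers 2 were lower and 2 higher (-0.70, 4764 against 3380). Their median was 0.12 (n = 6) and 0.54 (n = 3) with the floor at the 60th and 75th percentile. It was 0.24 (n = 4) on the second-brightest probe set. Of 8 measured T cell markers 6 were lower, 3 of them at least 2-fold (median -0.66). Of 2 measured erythroid markers 1 was lower, within 2-fold. The macrophage and monocyte genes Ccr2 (6.89 and 42.1) and C1qb (7.92 and 38.9) had signals below the floor with P25, and the erythroid genes Hba-a1, Alas2 and Klf1 on both arrays. The part of a changed cell mixture in the ratios of the oxidative phosphorylation genes was not tested.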

How the data were processed

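The authors deposited linear signal intensities, for which the submitters' processing notes name MAS5 and GCOS without versions. MAS5 scales every array to a target and subtracts mismatch signal, which makes dim probe sets noisy. The target and detection calls were not stated in the labels. Groups came from the treatment label, 1 array each. From the 45101 probe sets, 64 controls were left out, and 34945 probe sets with 1 platform symbol were used (932 with several were not). Each gene was read from the probe set with the highest mean log2 signal. Signals under the floor (40th percentile, 10.3) were set to it before the log2 ratio of P25 over medium, and genes were counted at 2-fold. No p-value was computed. Python 3.11.15, pandas 2.3.3, numpy 2.4.6 and statsmodels 0.14.6 (loess, span 0.3) were used, and the steps were tested on simulated data. Number of arrays limits the precision. No slide or scan is named in the labels, so a batch and the treatment cannot be told apart.

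The members, gene lists, named genes and motifs were chosen with earlier results of these data known. Named genes were those past 2-fold or at the floor on 1 array, the 3 highest and lowest of each complex, those with a fixed role, and the 2 highest and lowest of each other list. Other members were named after their values were seen, to account for all. Coordinates come from the RefSeq windows alone. Protein sequences were not used here. Alternatives were the floor (20th, 60th and 75th percentile), scaling (median, spike-in, loess), the median over probe sets, log2(signal + 16) and other choices of members. The second-brightest probe set, the removal of _s_at and _x_at probe sets (which can match several transcripts), and the genes of like signal were added after seeing the data.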

Additional observations from a re-analysis of the deposited data

How the results depend on the processing

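The median log2 ratio of the oxidative phosphorylation genes (0.51) was above 0 under every alternative run, as was that of each complex. Median scaling, spike-in scaling and loess gave 0.65, 0.66 and 0.33 for all members, 0.73, 0.73 and 0.42 for complex I, 0.61, 0.62 and 0.33 for complex II, 0.64, 0.65 and 0.32 for complex III, and 0.77, 0.78 and 0.45 for complex V. Complex IV (0.25) gave 0.39, 0.40 and 0.15 with these 3, 0.37 and 0.42 with the floor at the 60th and 75th percentile, where dim isoforms left the list, and 0.58 on the second-brightest probe set. That probe set gave 0.62 for all members (n = 47) and 0.71 for complex I (n = 20). The count at least 2-fold higher (7) came to 12, 13 and 4 with median scaling, spike-in scaling and loess, and the single gene 2-fold lower, Cox7c, to 0 with these 3, with the floor at the 75th percentile, with log2(signal + 16) and with the median over probe sets. Uqcrq changed sign to -0.12 by the median over probe sets and to -0.43 on its second-brightest probe set, which is also the one left without _s_at and _x_at probe sets. Without those kinds, Ndufa12 went from 0.97 to -1.08, since its bright probe sets are all of them. Atp5c1 went from 0.44 to -0.54 there and on its second-brightest probe set, and to -0.05 by the median over probe sets. Named members with smaller ratios, such as Sdha, Uqcrh and Cox8c, also changed sign under some alternatives. Of the 7 genes, Sdhd and Atp5g1 stayed at least 2-fold higher wherever they were computed, and Ndufb6 was under it (0.94) with loess. Counting Ndufa4 and Ndufa4l2 with complex IV left its median at 0.25 and that of complex I at 0.58. Leaving out isoforms and Cox7a2l gave 0.55 for all members and 0.47 for complex IV. Counts at least 2-fold higher in other lists moved too. Assembly factors of complexes II to V came to 11 of 33 with median and with spike-in scaling. The large mitochondrial ribosomal subunit came to 20 and 21 of 47, and the small one to 12 of 29 with each. All measured genes gave 12.4% and 12.5% there. Complex I assembly factors came to 1 of 14 with the floor at the 75th percentile. Medians of the regulators (-0.57 to 0.15), the vacuolar ATPase (-0.34 to 0.08), the inhibitors and remodelling factors (-0.07 to 0.56) and the dendritic cell markers (-0.70 to 0.54) lay on both sides of 0. Dim probe sets limit the ratios of Cox7c and the isoforms, and no replicate could be left out with 1 array per condition.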

Other observations

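Probe sets that the platform pairs with several symbols, left out of the members, include further genes of complex I. Of 10 such probe sets 9 were above the floor on both arrays and 8 had a log2 ratio above 0. The probe set of Ndufs6 and Ndufs6b had 1053 with P25 and 514 with medium, or 2.05-fold, and that of Ndufa11 and Ndufa11b had 828 and 511 on the brighter. The brighter of the probe sets shared by Ndufb4, Ndufb4b and Ndufb4c had 1129 and 865, or 1.30-fold, whereas the probe set with Ndufb4 as its single symbol was below the floor on both arrays. The probe set shared by Ndufab1 and its pseudogene had 1235 and 501, or 1.30 on the log2 scale, against 1.17 on the brightest probe set of Ndufab1 alone.

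Ndufa12 held the widest spread among its own probe sets: log2 ratios of 0.97, 1.05 and 1.28 on 3 bright ones and -1.08 on a dim one (45.0 with P25 and 94.8 with medium). Ndufb8 was alike, with 0.59 on the bright probe set (1160 and 768) and -1.13 on a dim one (19.7 and 43.3).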
